A study of Petunia x hybrida with 48 samples.

Results

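The 150 genes described here were abundant in petunia buds 6 and 7 and scarce in bud 2 in 2 separate experiments, with bud 3 held at the level of bud 2 in experiment 1. They were chosen by measured values from the 32828 genes present in both deposited tables. A gene first needed a mean of at least 50 normalized counts in experiment 1, which left 19585 genes, and a bud 3 mean within 2-fold of the bud 2 mean at both phosphate levels of that experiment, which left 18821. For each of these genes the lower of the bud 6 and bud 7 means was divided by the bud 2 mean, after 1 was added to each, in both experiments and at both phosphate levels. The smallest of the 4 log2 ratios was the score, and the 150 highest scores were taken. A working name for such genes, genes of growing apical buds only, held in experiment 1 because the choice required it. It did not hold in experiment 3, where 5 of 6 bud 3 pools carried them at the level of buds 6 and 7, so they are called the apical-high genes below.

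The plants were *Petunia hybrida* of the inbred line V26 in hydroponic culture, and the samples were whole axillary buds taken at nodes 2 and 3 (basal) and nodes 6 and 7 (apical) 24 h after the medium was changed. In experiment 1 the plants had grown in high phosphate (high P, 250 µM) and were moved to low phosphate (low P, 5 µM) or to fresh high P. In experiment 3 they had grown in low P and were moved to high P (resupply) or to fresh low P. Each of the 8 groups of an experiment, 4 buds at 2 P levels, had 3 pools of 6 to 7 plants, which makes 48 libraries. No transgene or mutant was used, and a pool averages over plants and over all cell types of a bud. Fewer cells of a type and less RNA per cell therefore cannot be told apart.

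Deposited values summed to 39733086 to 46381919 normalized counts per library in experiment 1 and 82964169 to 95608712 in experiment 3. One library stood apart from its group. Low P bud 3 replicate 3 of experiment 3 lay near bud 2, while both other pools of its group lay near bud 6. Comparisons with the low P bud 3 group are therefore given with and without that pool. It also widens the spread that the fit shares between groups, and so bears on every test of experiment 3 that keeps it. Tests of high P bud 3 against bud 2 and bud 6, and those between the apical buds, are given only with it in the fit. CDKB1, CDKB2 and cyclin B2, which mark dividing cells, and both copies of PDF1, an epidermal gene of young organs, were detected in every group. Identifiers are those of the *P. axillaris* genome without their shared prefix, Peaxi162.

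An axillary bud carries a small shoot meristem with leaf primordia and can rest for a long time before it grows out. In a growing bud, cells that copy their DNA make replication-linked histones, the proteins that package new DNA, almost entirely while the DNA is being copied. Growth-regulating factors and zinc finger homeodomain proteins are plant transcription factors known from young organs, and young leaf cells also build plastids and ribosomes at a high rate. In a resting bud most of these activities are low.

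**Figure D1:**
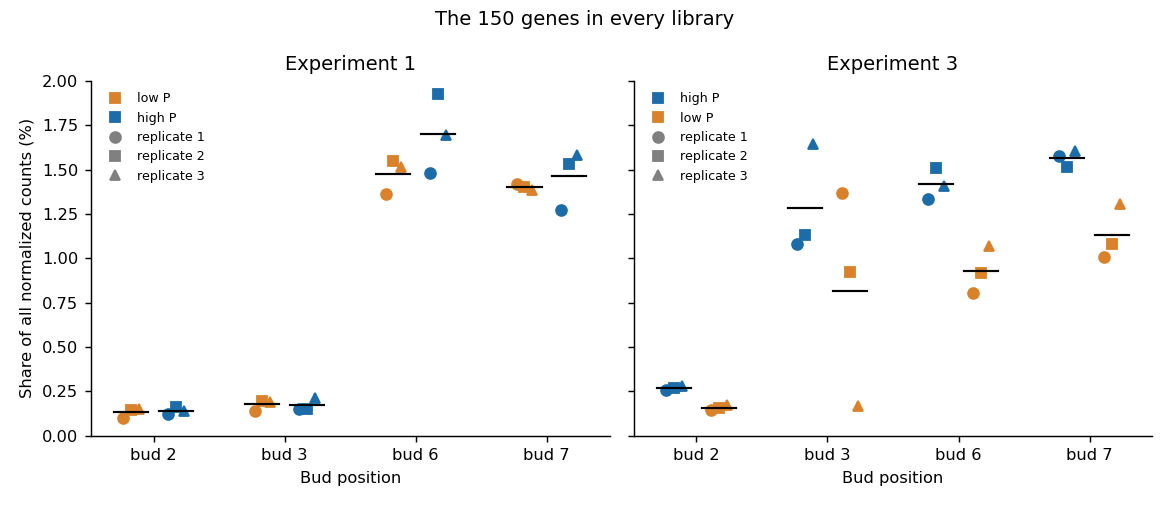
Summed share of all normalized counts of a library (y axis, in percent) taken by the 150 apical-high genes, by bud position (x axis), with experiment 1 on the left and experiment 3 on the right, 1 point per pool, a line at each group mean, and colours for the P level. In experiment 1 every bud 2 and bud 3 pool lies between 0.101% and 0.214% and every bud 6 and bud 7 pool between 1.28% and 1.93%, whereas in experiment 3 5 of the 6 bud 3 pools lie with buds 6 and 7.

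The summed share shows the pattern that the choice fixed and the one that it left free. In experiment 1 the 150 genes took 0.101 to 0.164% of the normalized counts in bud 2, 0.142 to 0.214% in bud 3, 1.36 to 1.93% in bud 6 and 1.28 to 1.58% in bud 7. In experiment 3 the share was 0.261 to 0.282% at high P and 0.148 to 0.174% at low P in bud 2. Bud 3 of experiment 3, whose libraries had no part in the choice, took 1.08, 1.13 and 1.65% at high P, and 1.37, 0.923 and 0.168% at low P. Bud 6 took 1.34 to 1.51% at high P and 0.806 to 1.07% at low P, and bud 7 took 1.52 to 1.60% at high P and 1.01 to 1.31% at low P. Apart from the low P replicate 3 pool, no bud 3 pool of experiment 3 came near a bud 2 pool.

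Scores ran between 1.98 and 4.29 with a median of 2.33 on the log2 scale. They describe the choice and carry no test. The gene just inside was Scf00013g00140.1 (1.98) and the gene just outside was Scf00026g00296.1 (1.97). The limiting ratio came from high P of experiment 3 in 58 genes, low P of experiment 3 in 39, high P of experiment 1 in 37 and low P of experiment 1 in 16. The highest score belonged to Scf00023g00102.1, which has no description. It had 110 to 216 normalized counts in the 6 bud 6 pools of experiment 1 and 0.953 to 10.1 in the 6 bud 2 pools. A further 84 genes had a score and a mean as high but over 2-fold more in bud 3 than in bud 2 of experiment 1 at either P level, and serve below as the nearest set for comparison.

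The study's supplementary tables, as far as they could be used, gave an entry for 88 of the 150 genes, and 79 of these had an informative description. Of the 150, 84 stood in a table of genes that differ between bud 3 of the 2 experiments, so the described genes lean towards such genes. Within that limit the largest group was histones. Of 43 described histone genes with a mean of at least 50, 32 were apical-high genes, against 79 of all 2587 described genes with such a mean. A score of at least 1 was reached by 40 of the 43, against 1418 of all 19585 genes, described or not. The 32 held all 11 of the H3 genes, 8 of 10 H4 genes, 7 of 10 H2B genes, 5 of 9 H2A genes and the only H1 gene, with H3 and H4 assigned by the closest Arabidopsis gene. The H2A, H2B and H4 genes left out had scores of 0.904 to 1.92, so they missed the limit without going the other way. Histone genes come in near-identical copies between which reads could be split, so the value of any one copy is uncertain.

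No other group was taken up like the histones. Of 19 DNA replication genes, such as those of the MCM helicase, none was a member, although 18 had a score of at least 1. Among mitosis genes and cyclins the count was 1 of 49, with 35 at a score of at least 1, and among ribosomal proteins of the cytosol it was 1 of 174, with 107 at a score of at least 1. These groups were thus also higher in buds 6 and 7 but by less than the limit. Growth-regulating factors gave 2 of 5 genes, transcription factors 4 of 157, kinases and receptors 4 of 177, hormone genes 2 of 68 and surface lipid genes 1 of 26. Cell wall genes gave 0 of 53, transporters 0 of 136 and phosphate starvation genes 0 of 22, and no phosphate starvation gene reached a score of 1. Some listed genes reached the score limit and were kept out only by the limit on bud 3 of experiment 1. They were 2 cell wall genes, 4 transporters, 6 transcription factors, 4 hormone genes, 2 surface lipid genes, 1 kinase or receptor and 1 ribosomal protein. Over all genes with a mean of at least 50, described or not, the count was 150 of 19585. The lists hold described genes only, and over all described genes with such a mean it was 79 of 2587. The lists were drawn up with results of these data known, so the counts are a description.

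As a set the histones had the higher median ratio in experiment 1, among values that the choice used. Their log2 ratio of the lower apical bud over bud 2 had a median of 3.79 at high P, against 2.59 for the 118 other members, and 3.84 against 2.69 at low P. Read length and pipeline version differed between the experiments, and their part in these ratios was not tested. In experiment 3 both sets had nearly the same median, 2.60 and 2.56 at high P and 2.65 and 2.63 at low P. Histone H2A 2 (Scf01039g00231.1) shows this in single pools. At low P of experiment 1 it had 241, 506 and 684 normalized counts in bud 2, 274, 648 and 774 in bud 3, 10634, 13284 and 12188 in bud 6 and 11114, 11517 and 11566 in bud 7. At high P of experiment 3 it had 3235, 3290 and 3444 in bud 2, 24148, 23447 and 35431 in bud 3, 30001, 34900 and 29976 in bud 6 and 36909, 35317 and 33090 in bud 7. Bud 3 lay with bud 2 in the first case and within or just below the range of the apical buds in the second.

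Some of the described members outside the histones are transcription factors of young organs or belong to ribosomes and their assembly. Transcription factors as a list did not share this pattern. Of the 157 listed, 104 had a score below 0 and 35 a score of at least 1. Homeobox protein 22 (Scf00569g00114.1), a zinc finger homeodomain protein, scored 3.45, and a second gene with that description (Scf00281g00094.1) scored 2.34. Growth-regulating factor 5 (Scf00724g00713.1), which promotes cell division in Arabidopsis leaves, scored 3.27, and growth-regulating factor 3 (Scf00408g00710.1) scored 2.06. Homeobox proteins 33 and 31 of the same homeodomain family (Scf00280g01015.1 and Scf00011g00209.1) scored 2.60 and 2.21. An H/ACA ribonucleoprotein complex subunit 2-like gene (Scf00017g03129.1), a part of the particle that modifies ribosomal RNA, scored 3.21, and 60S ribosomal protein L13-2 (Scf00815g00234.1) scored 3.10.

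Further described members had parts in chromatin, plastids and signalling. Most genes of the signalling lists did not share the pattern. A score below 0 was found in 118 of 177 kinases and receptors and in 49 of 68 hormone genes, and a score of at least 1 in 31 and 14. Cyclin A3 (Scf00848g00318.1), of a class that acts in DNA replication, scored 2.33. WHY1 (Scf00209g00226.1), a DNA-binding protein of chloroplasts, scored 2.13. Nucleoside diphosphate kinase 2 (Scf00763g00230.1) scored 2.75, receptor-like kinase 1 (Scf00284g00224.1) 2.79 and a protein kinase (Scf00011g00085.1) 2.70. A subtilase (Scf00117g01123.1), which is a secreted protease, scored 2.80, an ankyrin repeat protein (Scf00226g00936.1) 2.72 and a GDSL esterase/lipase (Scf00269g01617.1) 2.59. Auxin response factor 9 (Scf00074g00537.1) and a GH3 gene (Scf01258g00119.1), whose family conjugates auxin, scored 2.09 and 2.06. Singled out after their values were seen were DNA (cytosine-5)-methyltransferase 3 (Scf00062g00201.1), which methylates DNA, high mobility group proteins A and B13 (Scf00723g00045.1 and Scf00074g01143.1), which bind chromatin, and the plastid genes thioredoxin z (Scf00082g00120.1), Fe superoxide dismutase 2 (Scf00073g01924.1) and chloroplastic 30S ribosomal protein 3 (Scf00814g00229.1).

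The members were spread over 116 scaffolds of the genome assembly, and 57 of them lay on 23 scaffolds that held at least 2. The largest such group was 5 genes on Scf00015, of which 3 were H4 genes. Scf00058 held 4 H3 genes and Scf00406 held 4 histone genes of 3 kinds. Reads of neighbouring copies of this kind could be split between them.

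**Figure D2:**
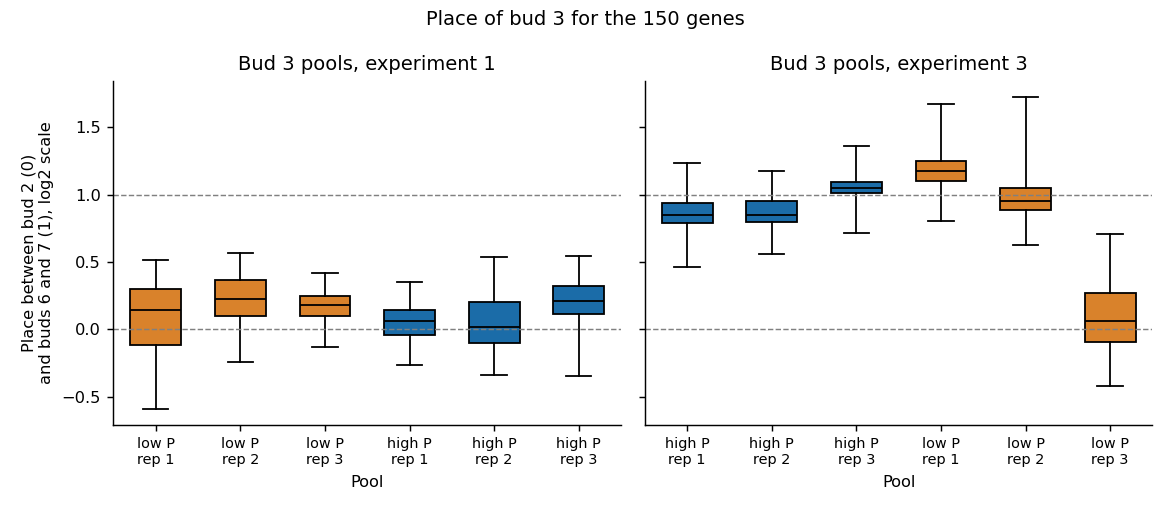
Place of each bud 3 pool on a log2 scale (y axis) on which 0 is the mean of bud 2 and 1 the mean of buds 6 and 7 at the same P level and experiment, with the pools on the x axis, experiment 1 on the left and experiment 3 on the right. Each box covers the middle 50% of the 150 genes with a line at the median. Medians lie between 0.0178 and 0.222 in experiment 1, which the choice required, and between 0.849 and 1.17 in 5 pools of experiment 3, with low P replicate 3 at 0.0611.

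The choice did not fix where bud 3 of experiment 3 would lie. Each gene was placed on a scale on which 0 is the mean of bud 2 and 1 the mean of buds 6 and 7 at the same P level, in log2 units. In experiment 1 the median place of the 150 genes in bud 3 was 0.148, 0.222 and 0.178 in the low P pools and 0.0618, 0.0178 and 0.212 in the high P pools. In experiment 3 it was 0.849, 0.849 and 1.05 at high P, and 1.17, 0.950 and 0.0611 at low P. At high P between 149 and 150 genes were past the midpoint in each pool. In low P replicate 3 only 4 genes were. In that pool the histones had a median place of −0.108 and the other members one of 0.138.

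This was not particular to the 150 genes. The 84 genes of equal score whose bud 3 was already over 2-fold above bud 2 in experiment 1 had medians of 0.864, 0.850 and 1.07 at high P of experiment 3, and 1.05, 0.945 and 0.296 at low P. The 2498 genes over 2-fold higher in buds 6 and 7 than in bud 2 of experiment 3 had medians of 0.913, 0.897 and 1.02 at high P, and 1.25, 0.936 and 0.0772 at low P. Apart from low P replicate 3, bud 3 of experiment 3 thus lay near the level of the apical buds in these wider sets too. In experiment 1 the 3150 genes picked in the same way had medians of −0.0134 to 0.226, a range like that of the 150 genes.

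Between bud 3 and bud 2 of experiment 3 all 150 genes were called higher in bud 3 at high P (over 2-fold with an adjusted p below 0.05, limma over all genes), against 12.3% of the genes tested. The median log2 difference was 2.42, a 5.34-fold higher level, against −0.04 over all genes, and the single genes lay between 1.44 and 6.86. In all 150 every bud 3 pool was above every bud 2 pool, against 35.8% of genes. At low P this held in 64, against 14.7% of genes, and the pools of the other 86 overlapped. Without low P replicate 3 it held in 150, against 35.5% of genes. At low P 148 were called higher, against 7.78% of genes, with a median of 2.08. The others, Scf01204g00015.1 and Scf00108g00417.1, have no description. Without low P replicate 3 it was 150, against 14.6% of genes, with a median of 2.97. It was 77 without low P replicate 1 (3.05% of genes), 99 without low P replicate 2 (4.62%), and 0 in a fit to the 6 compared libraries, which called 0% of genes. The bud 2 libraries had a part in the choice, which favours genes low in them, and the bud 3 libraries had none.

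Tissue markers differed between the same buds. At high P every bud 3 pool was above every bud 2 pool in 6 of 9 markers, below in 2 (WOX4 and DRM1-type) and overlapping in 1 (CESA4). One PDF1 copy averaged 33147 ± 2906 normalized counts in bud 3 and 2997 ± 93.7 in bud 2, and the other averaged 105650 ± 8342 in bud 3 and 15511 ± 1271 in bud 2 (SD, n = 3 pools each). The 6 chlorophyll a-b binding protein genes, of green leaf tissue, summed to 116105 ± 36350 in bud 3 and 36775 ± 5369 in bud 2. WOX4, a cambium gene, averaged 896 ± 133 in bud 3 and 4632 ± 1002 in bud 2, and the DRM1-type gene, known from dormant buds, averaged 11820 ± 3854 in bud 3 and 27480 ± 1903 in bud 2. At low P without replicate 3 the counts were 6 above, 3 below and 0 overlapping, and with it 2, 2 and 5. The part of tissue makeup in the difference between bud 3 and bud 2 was not tested.

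Against bud 6, bud 3 of experiment 3 showed no called member by limma at high P or at low P. The bud 6 libraries had a part in the choice, which favours genes high in them, and the bud 3 libraries had none. At high P the fit kept low P bud 3 replicate 3, which widens the shared spread. The share of genes called in either direction was 0.607% at high P and 0.726% at low P. An unadjusted p below 0.05 was found in 1 and 5 members, counts given without the share of all genes at that limit. The median log2 difference of bud 3 against bud 6 was −0.17 at high P and −0.63 at low P. Without low P replicate 3 it was 0.29 at low P, with 130 of the 150 above 0 and again 0 called, against 0.376% of genes. The share of all genes above 0 is not given, so the 130 cannot be read as a trait of the members. Without low P replicate 1, 45 members were called lower in bud 3, against 4.27% of genes called in either direction. The sign of the low P value thus hung on 1 pool. At high P the bud 3 and apical ranges overlapped in 147 genes, bud 3 was above in 1 and below in 2, and over all genes 88.5% overlapped. At low P they overlapped in 149, against 94.6% of genes. Without low P replicate 3 they overlapped in 129, against 86.2% of genes, and bud 3 was above in 20.

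Single genes differed in where bud 3 stood. Over all 6 pools the lowest mean places were those of Scf00485g00037.1 (0.566), Scf00108g00417.1 (0.673), Scf01204g00015.1 (0.702) and Scf00011g01842.1 (0.713), and none of these has a description. The highest were those of Scf00420g00240.1 (1.12), Scf00013g00140.1 (1.09), Scf00629g00122.1 (1.04) and peroxiredoxin-2B (Scf00110g00183.1, 1.02), which removes peroxides. Without low P replicate 3, Scf00485g00037.1 remained lowest at 0.698, but the next lowest were Scf00231g00027.1 (0.797), Scf00008g00043.1 (0.846) and a subtilase (Scf00117g01123.1, 0.861). Scf00420g00240.1 remained highest at 1.35, and Scf00629g00122.1 left the 4 highest, which Scf00111g00231.1 (1.19, named after its values were seen) entered. Peroxiredoxin-2B had 6467, 6882 and 5341 normalized counts in bud 3 at high P, where bud 6 had 3609, 5878 and 6016. Its low P bud 3 pools had 4737, 4363 and 420, where bud 6 had 2327, 2804 and 2920.

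Of 9 markers examined, 6 had their lowest and 3 their highest bud 3 value of experiment 3 in low P replicate 3, the pool in which the 150 genes were low. CDKB1 had 6159, 5956 and 8953 normalized counts in bud 3 at high P, and 7561, 5295 and 2259 at low P, with low P replicate 3 the lowest. Cyclin B2 had 3894, 3688 and 5764 at high P, and 5204, 3667 and 1074 at low P, and CDKB2, both PDF1 copies and the sum of the chlorophyll a-b binding proteins were also lowest there. The dormancy-associated DRM1-type gene had its highest value there, 26810, against 7926 to 15630 in the other 5 pools. So did WOX4, with 2954, against 765 to 1658, and CESA4, a xylem gene, with 2549, against 1154 to 2468. The part of tissue makeup in the place of bud 3 was not tested.

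**Figure D3:**
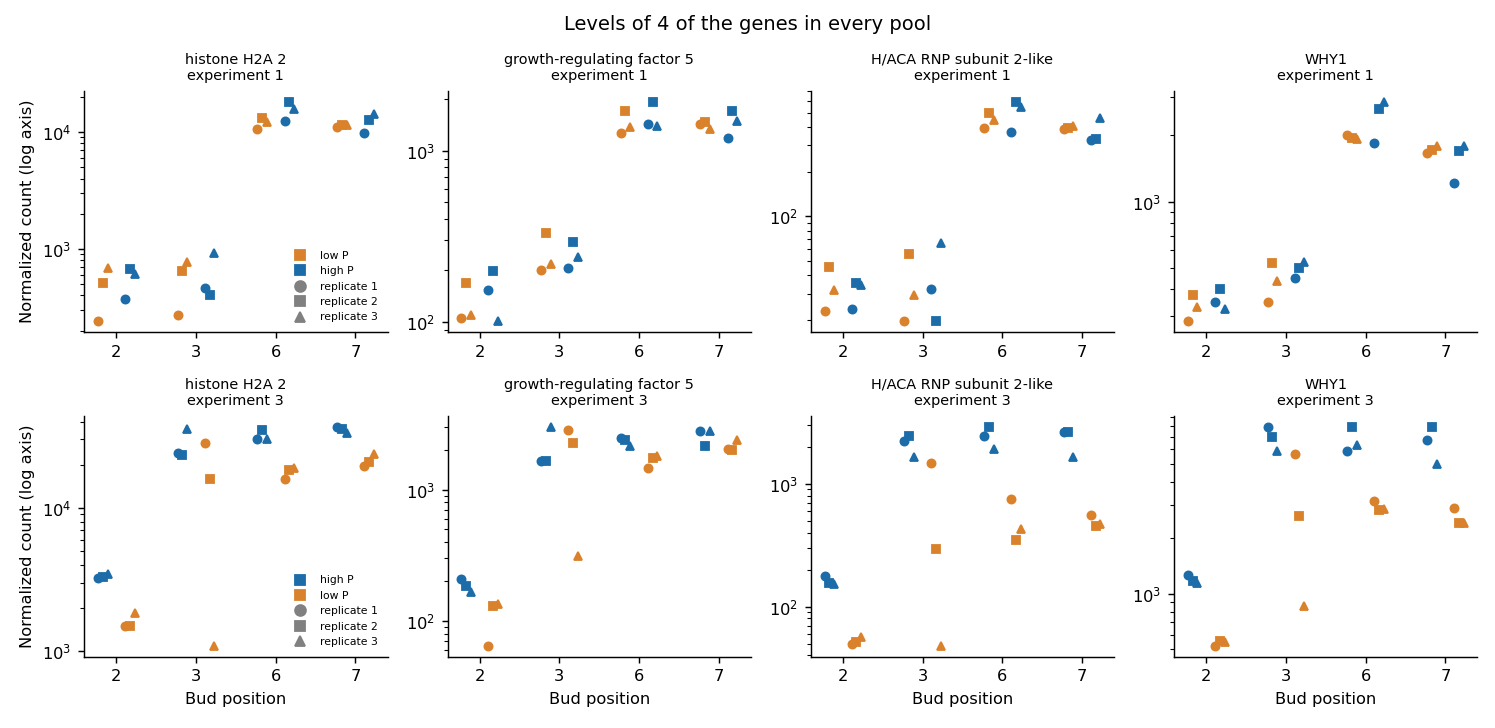
Normalized counts (y axis, log scale) of 4 apical-high genes in every pool by bud position (x axis), with experiment 1 in the upper row and experiment 3 in the lower row, 1 point per pool and colours for the P level. Bud 3 lies near bud 2 in experiment 1 and near buds 6 and 7 in experiment 3 except for 1 low P pool, and the H/ACA subunit gene also lies higher at high P than at low P in buds 2, 6 and 7.

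Growth regulators followed the same course in single pools of experiment 3. Growth-regulating factor 5 had 1667, 1656 and 3038 normalized counts in high P bud 3, where bud 2 had 209, 186 and 167 and bud 6 had 2484, 2409 and 2151. In low P bud 3 it had 2871, 2266 and 313, where bud 2 had 64.5, 129 and 136. In experiment 1 bud 3 had 200, 329 and 217 at low P and 207, 294 and 240 at high P, all below the lowest bud 6 value there of 1277. Homeobox protein 22 had 781, 680 and 1323 in high P bud 3 of experiment 3, and 1127, 971 and 236 in low P bud 3, against 53.2 to 120 in all 6 bud 2 pools. Both regulators in low P replicate 3 were above every bud 2 pool and far below every bud 6 pool.

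Phosphate resupply in experiment 3 compared high P with low P within each bud, a contrast the choice did not use. The libraries of buds 2, 6 and 7 at both P levels did have a part in the choice, so these values are not independent of it. The 150 genes leaned upwards at high P in every bud, in bud 3 largely through 1 pool. The 84 genes of equal score are not set beside them here, so the lean is not shown to be particular to the 150. Median log2 differences were 0.76, 1.13, 0.68 and 0.51 in buds 2, 3, 6 and 7, against 0.06, −0.01, −0.03 and −0.02 over all genes tested. Above 0 were 138, 147, 137 and 131 of the 150 in the same order, counts given without the share of all genes above 0. Every high P pool was above every low P pool in 100 genes for bud 2, against 28% of genes, in 100 for bud 6, against 25.3%, and in 92 for bud 7, against 23.4%. The 32 histones were among these in all 3 buds.

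**Figure D4:**
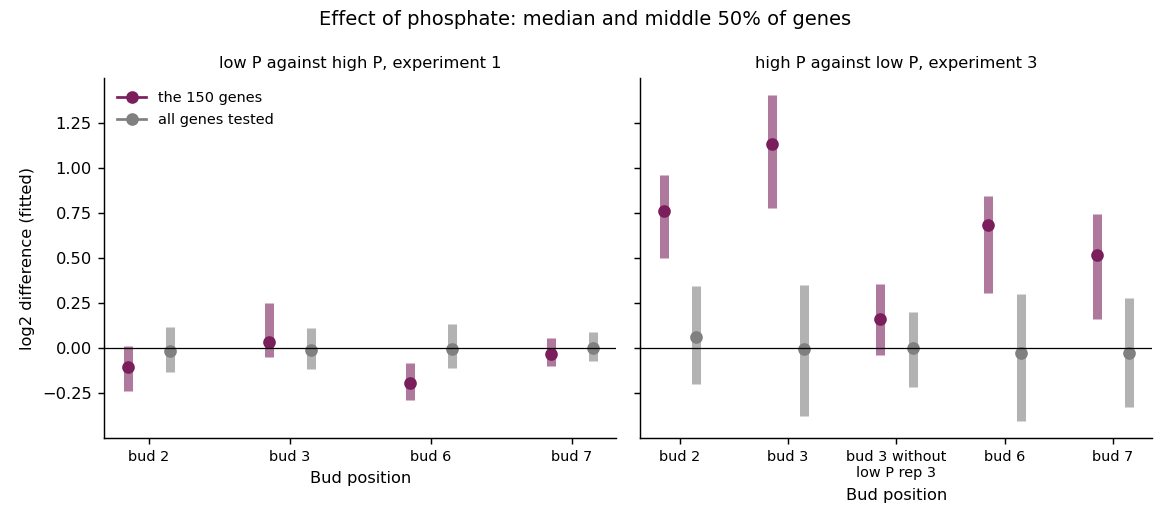
Log2 difference between P levels (y axis) by bud position (x axis), resupply (high P against low P) in experiment 3 and withdrawal (low P against high P) in experiment 1, as the median and the middle 50% of the 150 apical-high genes beside all genes tested. In experiment 3 the medians of the 150 genes are 0.76, 1.13, 0.68 and 0.51 in buds 2, 3, 6 and 7, and bud 3 drops to 0.16 without low P replicate 3, while in experiment 1 they lie between −0.20 and 0.04.

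Few single genes passed the test in the fit to all 24 libraries. In bud 2, 4 were called higher at high P and 1 lower (limma, 1.22% and 1.56% of all genes), in bud 6 the counts were 5 and 0 (1.83% higher), and in bud 7 they were 7 and 1 (1.31% and 3.04%). Higher in bud 2 were Scf00415g00003.1, Scf00111g10126.1, Scf00008g00043.1 and Scf00003g04832.1, with log2 differences of 1.87, 1.67, 1.07 and 1.45, and the first 3 were named after their values were seen. Scf00008g00043.1 is described as a heavy metal transport/detoxification protein and had 475 ± 52.6 normalized counts at high P and 233 ± 78.4 at low P (SD, n = 3 pools each). Leaving out any 1 of the 6 compared pools gave 1 to 3 called in bud 2 and 0 to 4 in buds 6 and 7. These counts have no share of all genes beside them and show only the dependence on single pools. Leaving low P bud 3 replicate 3 out of the fit changed no fold change in these buds but lowered the shared estimate of the spread, and the calls then came to 34 higher and 1 lower in bud 2 (2.01% and 2.13% of all genes), 17 higher and 0 lower in bud 6 (2.17% higher), and 15 higher and 1 lower in bud 7 (1.70% and 3.95%). With no fold limit, 92 members in bud 2, 85 in bud 6 and 66 in bud 7 then had an adjusted p below 0.05 and were higher at high P, against 17.4%, 20.9% and 17.1% of all genes. Among the 32 histones these counts were 30, 32 and 28.

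In bud 3, the bud whose libraries had no part in the choice, the result hung on 1 pool. All 3 pools gave 33 members called higher at high P and 0 lower, against 2.86% of genes called higher, and 17 whose high P pools were all above the low P pools, against 12.5%. Without low P replicate 3 the count was 3 higher and 1 lower, against 0.261% and 1.36% of genes, and the median was 0.16. The called members numbered 123 without low P replicate 1, against 9.36% of genes called higher, and 57 without low P replicate 2, against 4.12%. They numbered 8 to 10 without any 1 of the high P pools, against 1.75 to 2.67%, and 0 in a fit to the 6 compared libraries, which called 0% of genes higher. The P effect itself was compared between buds, as bud 3 or apical bud against bud 2 and as bud 3 against bud 6, and 0 members had an adjusted p below 0.05 in limma with or without low P replicate 3, against 0 to 0.0133% of all genes with that pool and 0.00443 to 0.186% without it. At an unadjusted p below 0.05 there were 0 or 1 members per comparison with that pool, against 5.65 to 8.59% of genes. Without it there were 49 members for bud 3 against bud 2 (32.7%, against 6.48% of genes), 31 for bud 3 against bud 6 (20.7%, against 10.9%), and 12 and 10 for buds 6 and 7 against bud 2 (8% and 6.67%, against 14.6% and 10.5%). The median difference in the P effect of bud 3 against bud 2 was 0.40 with that pool and −0.55 without it. The P effect of the 150 genes is therefore not shown to differ between buds.

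The H/ACA subunit gene (Scf00017g03129.1) had the largest called change. In bud 6 it had 2473, 2932 and 1919 normalized counts at high P, and 747, 349 and 431 at low P, a log2 difference of 2.31 ± 0.69 (SE, n = 3 pools each, limma adjusted p = 0.0188). In bud 7 it had 2643, 2642 and 1645 at high P, and 558, 452 and 470 at low P, with a log2 difference of 2.20 (adjusted p = 0.035). The groups did not overlap in either bud, and the low P values were the lower. In bud 3 it had 2243, 2469 and 1669 at high P, and 1470, 293 and 47.9 at low P, with a log2 difference of 2.93, and of 1.68 without low P replicate 3 (adjusted p = 0.0077 and 0.0319). In bud 2 it had 176, 155 and 152 at high P, and 49.1, 51.5 and 56.7 at low P, a difference of 1.60 that missed the threshold (adjusted p = 0.133) and passed it without low P bud 3 replicate 3 in the fit (adjusted p = 0.0062).

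WHY1 and a gene without description were called in several buds. WHY1 had 5850, 7972 and 6318 normalized counts at high P in bud 6, and 3151, 2828 and 2872 at low P, a log2 difference of 1.17 ± 0.39 (SE, n = 3 pools each, limma adjusted p = 0.0317). It was also called in bud 7 at 1.33 and in bud 3 at 1.56, and in bud 3 the difference was 0.84 and not called without low P replicate 3. Scf00003g04832.1 was called in all 4 buds, with log2 differences of 1.45, 2.00, 1.51 and 1.38 in buds 2, 3, 6 and 7. Its bud 6 pools had 14211, 17436 and 13678 at high P, and 5740, 5336 and 4817 at low P. Scf00207g00735.1 was called in buds 3, 6 and 7, and Scf00263g00004.1 in buds 3 and 6, where its log2 difference was 1.84 in bud 6. In bud 3, of the genes called higher at high P, the H/ACA subunit gene, Scf00003g04832.1 and Scf00011g01842.1 stayed called without low P replicate 3.

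Histone H2B.10 (Scf00114g00053.1) was the only histone called in bud 7 in the fit to all 24 libraries, with 3186, 6302 and 6880 normalized counts at high P, and 1145, 1153 and 1162 at low P, a log2 difference of 2.16 (adjusted p = 0.0215). Histone H2A 2 was more typical of the group. In bud 6 it had 30001, 34900 and 29976 at high P, and 15814, 18288 and 18847 at low P, a log2 difference of 0.84 with no overlap (adjusted p = 0.368). Without low P bud 3 replicate 3 in the fit all 32 histones had an adjusted p below 0.05 in bud 6, but only 2 were over 2-fold. Nucleoside diphosphate kinase 2 and Scf00011g01842.1 were called in bud 3, at log2 differences of 1.84 and 2.10, and without low P replicate 3 the differences were 0.50, not called, and 1.07, called. In the fit to all 24 libraries neither was called in bud 2, whereas both were called there without that pool in the fit, and Scf00011g01842.1 also with the replicate number as a block.

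A few members went the other way. An F-box gene (Scf00231g00027.1), of a family that marks proteins for breakdown, was singled out after its values were seen. It had 58.4, 41.2 and 76.4 normalized counts at high P in bud 2, and 159, 201 and 189 at low P, and was called lower at a log2 difference of −1.66 (limma adjusted p = 0.0039). In bud 7 it had 669, 810 and 791 at high P, and 1670, 1487 and 1765 at low P, and was called at −1.12. It was also the member called lower in bud 3 without low P replicate 3. Auxin response factor 9 also leaned down, with a bud 6 difference of −0.67 that did not pass (adjusted p = 0.0533). Its bud 6 pools had 9426, 11378 and 10928 at high P, and 12513, 18271 and 20640 at low P, without overlap.

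Dividing-cell markers leaned the same way under resupply. In bud 2, CDKB1 averaged 4294 ± 184 normalized counts at high P and 2361 ± 172 at low P (SD, n = 3 pools each). In bud 6 it averaged 9234 ± 484 at high P and 4640 ± 1140 at low P. Cyclin B2 averaged 2300 ± 143 at high P and 1302 ± 106 at low P in bud 2, and 5581 ± 437 at high P and 3121 ± 1110 at low P in bud 6. The part of tissue makeup in the P effect on the 150 genes was not tested.

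Withdrawal of phosphate in experiment 1 compared low P with high P within each bud. No member was called by limma in bud 2, 3, 6 or 7, against 0.0134%, 0.00447%, 0.00447% and 0% of all genes. An unadjusted p below 0.05 was found in 4, 6, 4 and 0 of the 150, counts given without the share of all genes at that limit. The median log2 differences were −0.10, 0.04, −0.20 and −0.03 in buds 2, 3, 6 and 7, against −0.02 to 0.003 over all genes. Above 0 were 40, 92, 16 and 59 of the 150 in the same order, counts given without the share of all genes above 0. Of the 150, 16 had every low P pool below every high P pool in bud 6, against 5.55% of genes. In that bud histone H2A 2 had 10634, 13284 and 12188 at low P, and 12300, 18090 and 15739 at high P, groups that overlap. The 24 h of withdrawal and the 24 h of resupply come from separate experiments with other starting media and were not tested against each other.

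Bud 7 was compared with bud 6, both of which the choice required to be high. By limma 0 members were called in either experiment at either P level, against 0.0537% of genes in either direction at low P and 1.48% at high P of experiment 1, and 0% at high P and 0.00443% at low P of experiment 3. The members with an unadjusted p below 0.05 numbered 0 and 18 in experiment 1 and 0 and 0 in experiment 3, in the same order. The share of all genes at that unadjusted limit is not given, so these counts cannot be read as a trait of the members. The median log2 difference was −0.10 at low P and −0.26 at high P of experiment 1, and 0.12 at high P and 0.26 at low P of experiment 3. At high P of experiment 1, 32 members had every bud 7 pool below every bud 6 pool, against 12.6% of genes. The medians lay below 0 in experiment 1 and above 0 in experiment 3, a difference that was not tested. The experiment 3 tests given here kept low P bud 3 replicate 3 in the fit, which widens the shared spread.

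Of the members, 5 had an adjusted p below 0.05 between bud 7 and bud 6 at high P of experiment 1, all lower in bud 7 and none over 2-fold, against 2.59% of genes lower at that limit. An elongation factor P gene (Scf01238g00221.1) had 1850, 1657 and 2033 normalized counts in bud 7 and 3063, 3129 and 3885 in bud 6, a log2 difference of −0.86 ± 0.15 (SE, n = 3 pools each, limma adjusted p = 0.0059). Fe superoxide dismutase 2 differed by −0.84, chloroplastic 30S ribosomal protein 3 by −0.79, nucleoside diphosphate kinase 2 by −0.75 and WHY1 by −0.64. Elongation factor P, Fe superoxide dismutase 2 and the 30S protein were named after their values were seen. With the replicate number as a block, 1 member was called lower in bud 7 in this comparison. It was Scf00043g00254.1, which has no description and was named after its values were seen, at a log2 difference of −1.20 (limma adjusted p = 0.0477 with the block and 0.0546 without it).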

How the data were processed

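Each of the 48 libraries was made from mRNA of a pool of axillary buds. The authors ran the nf-core/rnaseq pipeline with the *P. axillaris* genome, in which Trim Galore trims and Salmon quantifies, and deposited signal values, which are counts normalized by DESeq2, in 1 table per experiment. The submitters' processing notes also name STAR and FastQC. The experiments differed in read length and in the version of the pipeline. The tables were normalized separately, so tests were run only within an experiment. Whole reads were not recovered, so no count model was used and no counting error can be given.

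Values were analysed as log2(value + 1), which understates changes of low genes. A mean of at least 10 was required, which 22363 genes of experiment 1 and 22584 of experiment 3 met, the 150 members among them in both. A mean was fitted for each of the 8 groups to all 24 libraries of an experiment with limma 3.58.1 (R 4.3.3) and a variance trend, with Benjamini-Hochberg adjustment over all genes, and the scripts were tested on simulated data. A gene was called at over 2-fold and an adjusted p below 0.05. Comparisons numbered 16. Pools of a group are separate samples of plants grown together, so p-values measure the spread between pools. Figures were drawn with matplotlib 3.10.9 (Python 3.11.15). Within-number correlations of deviations from group means exceeded 0.1 for every pair in 3 of the 16 comparisons (0.149 to 0.392). These comparisons were low against high P in bud 2 of experiment 1 and bud 7 against bud 6 at high P in each experiment. There the numbers were taken to pair the pools, which no sample label states. The tests given are nevertheless from fits without the replicate block, unless it is named.

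The members and the 12 gene lists were chosen with earlier results of these data known. The rule also left out 3 genes by name, none of which would have been a member. Named are the 15 described members with the highest score, up to 4 per list, those with the largest called P effect (5 per direction in bud 3 or bud 6 of experiment 3), the 4 highest and 4 lowest places of bud 3, and the genes at the limits of the score. Others are marked as named after their values were seen. The alternatives were another pseudocount, filters, scalings, the replicate block, fits to 6 libraries and leaving out each pool. Fits that leave out the deviating low P pool of bud 3 (experiment 3), or all 4 high P pools numbered 1 (experiment 1), were added after the data were seen. No sequence was used here.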

Additional observations from a re-analysis of the deposited data

Results flagged for a closer look

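A leucine-rich repeat protein kinase gene (Scf00009g00433.1), whose family includes cell surface receptors, moved in opposite directions between buds under phosphate withdrawal in experiment 1. Its log2 difference of low P against high P was 0.3701 in bud 3, where every low P pool was above every high P pool, and -0.3757 in bud 2 and -0.2484 in bud 7, where every low P pool was below every high P pool. None of the 3 differences was called, and the difference between buds was not tested.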

How the results depend on the processing

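Of 221 counts of called members under alternatives, 183 lay within 1.5 times the count given in the report and 38 did not, and in the 6 comparisons run for 39 named genes no called value changed sign, whereas values that were not called did so in 38 of 3198 fits. For bud 3 against bud 6 at low P of experiment 3 the median changed sign without low P replicate 3. For resupply in experiment 3, a fit to only the 6 compared libraries called 30, 0, 16 and 16 members in buds 2, 3, 6 and 7, and 0 for bud 3 against bud 2 at low P. Leaving low P bud 3 replicate 3 out of the fit called 35, 17 and 16 in buds 2, 6 and 7. With no filter on low values, 21 were called in bud 3, and after quantile normalization 5 in bud 7. Leaving out each compared pool in turn called 1 to 3 members in bud 2, 4 to 123 in bud 3 and 0 to 4 in buds 6 and 7, 77 to 150 for bud 3 against bud 2 at low P, 149 to 150 at high P, 0 to 45 for bud 3 against bud 6 at low P and 0 at high P. For bud 7 against bud 6 at high P of experiment 1, 1 member was called with a pseudocount of 5, with the replicate block and without the 4 high P replicate 1 libraries, and 0 to 1 when each pool was left out. Whether the numbers pair the pools was open in 13 of the 16 comparisons, and with the replicate block 7 members were called in bud 2 and 29 in bud 3 under resupply and no other count changed beyond the 1 named. Where no share of all genes called is given above for the same fit, a count shows only how calls depend on processing. Such a count is no result about the members. The causes of these shifts were not tested. The median log2 difference under resupply lay between 0.71 and 0.76 in bud 2, 0.64 and 0.71 in bud 6 and 0.49 and 0.53 in bud 7 over all alternatives that keep every compared pool. Depth per library is known only after normalization, so counting error could not be set apart from the spread between pools.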
